A study of Homo sapiens with 6 samples.

Results

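The genes described here are 10 subunits of condensin and cohesin, the ring-shaped protein machines that fold chromosomes and hold sister chromatids together. They are SMC2, SMC4, NCAPH, NCAPD2, NCAPG, NCAPH2, NCAPD3, NCAPG2, SMC3 and RAD21, chosen by name from the count table, where all 10 were found among 20030 genes and all 10 had enough counts to be tested. The choice was made with earlier results of these data known. The cells were HepG2, an established human hepatoma line, and 3 libraries came from cells with a control hairpin (sh-ctrl) and 3 from cells in which the mitotic kinesin KIF11 was depleted by a hairpin (sh-KIF11). Hairpins were delivered in a pLKO.1 lentivirus with puromycin selection, so that the control cells carry a vector too, and 1 hairpin sequence against KIF11 is listed in the oligonucleotide table of the study. The labels do not say whether the libraries of a group came from separate cultures, so p-values measure the spread between these libraries, which may be technical.

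Condensin and cohesin share a design in which a pair of long SMC ATPases is closed into a ring by a kleisin, and proteins with HEAT repeats bind the kleisin. SMC2 and SMC4 are the ATPases of both condensin I and condensin II. Condensin I adds the kleisin NCAPH with NCAPD2 and NCAPG, and condensin II adds the kleisin NCAPH2 with NCAPD3 and NCAPG2. Condensins compact chromosomes in mitosis, condensin II from the nucleus in prophase and condensin I after the nuclear envelope has opened. Cohesin, built on SMC3 with its partner SMC1A and the kleisin RAD21, holds sister chromatids from S phase to anaphase and extrudes chromatin loops in interphase. Separase ends cohesion by cleaving RAD21. In liver, as elsewhere, genes of the mitotic condensins are known as proliferation genes, whereas cohesin is also made in cells that do not divide.

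Promoters of some of the subunits are shown as a description, and whether their letters relate to the changes of mRNA was not tested. Each window runs from 250 bases before to 50 bases after the start site of the gene (RefSeq, GRCh38.p14) and was found for 8 of the 10 genes, not for NCAPH2 and RAD21. Capitals mark matches, on either strand, to the CHR element of cell cycle genes (TTTGAA or else TTCGAA), to the CCAAT box (CCAAT) and to an E2F site (TTCCCGC or else TTCGCGC, or instead TTGCCGC, or finally TTGGCGC), and no match overlapped another in these windows. The windows of SMC3 and SMC2, whose mRNA was higher in sh-KIF11, come first. Those of NCAPD2 and NCAPG2, whose mRNA was lower, and of NCAPG, with E2F and CHR matches near its start site, follow. The windows of SMC4, NCAPH and NCAPD3 are not printed, and those of NCAPH and NCAPD3 hold no CHR match.
SMC3 (chr10:110567445-110567744, plus strand): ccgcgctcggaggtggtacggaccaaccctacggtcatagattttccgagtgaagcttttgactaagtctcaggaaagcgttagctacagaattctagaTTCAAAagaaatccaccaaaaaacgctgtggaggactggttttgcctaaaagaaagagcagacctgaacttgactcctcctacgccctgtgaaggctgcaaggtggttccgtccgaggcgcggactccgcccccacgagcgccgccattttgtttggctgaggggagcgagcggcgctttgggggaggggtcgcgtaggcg
SMC2 (chr9:104094059-104094358, plus strand): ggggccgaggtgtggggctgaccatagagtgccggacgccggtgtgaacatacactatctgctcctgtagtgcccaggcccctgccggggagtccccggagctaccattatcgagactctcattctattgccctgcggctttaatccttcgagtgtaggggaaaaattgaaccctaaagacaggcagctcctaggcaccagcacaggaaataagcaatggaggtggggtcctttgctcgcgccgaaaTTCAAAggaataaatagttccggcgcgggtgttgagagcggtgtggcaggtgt
NCAPD2 (chr12:6493852-6494151, plus strand): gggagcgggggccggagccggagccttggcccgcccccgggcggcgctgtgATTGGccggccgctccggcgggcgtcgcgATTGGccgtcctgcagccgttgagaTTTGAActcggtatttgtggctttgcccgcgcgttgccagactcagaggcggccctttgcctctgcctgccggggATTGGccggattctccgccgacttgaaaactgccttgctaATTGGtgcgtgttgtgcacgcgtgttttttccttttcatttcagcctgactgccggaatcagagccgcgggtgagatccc
NCAPG2 (chr7:158704755-158705054, minus strand): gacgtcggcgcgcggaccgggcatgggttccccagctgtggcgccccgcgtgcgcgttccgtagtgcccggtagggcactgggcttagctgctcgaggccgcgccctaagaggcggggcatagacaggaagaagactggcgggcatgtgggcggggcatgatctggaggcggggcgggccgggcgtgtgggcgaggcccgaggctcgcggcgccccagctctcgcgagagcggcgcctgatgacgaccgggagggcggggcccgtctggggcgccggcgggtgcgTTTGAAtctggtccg
NCAPG (chr4:17810729-17811028, plus strand): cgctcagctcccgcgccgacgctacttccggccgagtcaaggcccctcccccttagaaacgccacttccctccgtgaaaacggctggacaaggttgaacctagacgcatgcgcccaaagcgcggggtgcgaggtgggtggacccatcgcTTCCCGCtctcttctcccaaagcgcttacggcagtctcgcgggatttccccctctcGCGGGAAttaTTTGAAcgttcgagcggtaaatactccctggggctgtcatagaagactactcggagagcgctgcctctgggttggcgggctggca

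A CHR match lay in 6 of the 8 windows, those of SMC2, SMC4, NCAPD2, NCAPG, NCAPG2 and SMC3. Of the 27305 windows of all genes 16.6% held one, and of the 10111 windows of genes tested here 11.3%. The 6 genes with a match included both subunits that were higher in sh-KIF11 and several that were lower. The window of NCAPD2 held 4 CCAAT boxes, all on the reverse strand, the nearest beginning 30 bases before the start site. Besides NCAPD2, a CCAAT box was found for NCAPH alone, so that 2 of the 8 windows held one, against 36.8% of the windows of tested genes. E2F letters were found for SMC4 and NCAPG, in 2 of 8 windows against 20.9%. In NCAPG an E2F match began 45 bases and a CHR match 35 bases before the start site. NCAPD3 had none of these letters in its window. These matches describe the letters in the windows and not the binding of a factor.

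The sh-KIF11 hairpin has a guide strand with the sequence aTTCTACTattgaatgggcgc (5′ to 3′, seed at bases 2 to 8 in capitals), which was searched for in the subunit transcripts. Its full target was found in the KIF11 transcript and in none of the transcripts examined for the 10 subunits (for each gene, the transcript with the longest coding sequence in GENCODE release 29). The 7-base site that pairs with the seed, AGTAGAA, was absent from the 3′ UTR of all 10 transcripts, whereas 11.3% of 12144 tested genes held it. At that share, finding none in 10 genes is not unusual. Seed sites outside these 3′ UTRs, shorter sites and sites of the other hairpin strand were not searched. Action of the hairpin on genes other than KIF11 was not tested.

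The libraries held 18167773 to 19583282 counts, and a subunit had between 1240 and 5321 counts in each, so that counting error was at most 2.84% of a value. KIF11 itself was lower, at 116 ± 5.01 CPM (counts scaled to a common library size with TMM) in sh-ctrl and 68.8 ± 5.16 CPM in sh-KIF11 (SD, n = 3 each). The third sh-ctrl library stood somewhat apart, with a chi-square per degree of freedom of 6.25 and 8.11 against the other sh-ctrl libraries, whereas other pairs within a group had 2.67 to 3.5. All 10 hepatocyte markers were detected, and their summed level ranged from 36100 to 37800 CPM in sh-ctrl and from 15600 to 16900 CPM in sh-KIF11. Of the 10, 9 were lower and TTR did not pass, where 34.7% of all tested genes were lower. Of 12 markers of other cell types, 3 were tested (CD68, PECAM1 and VWF), DCN and KRT5 had 0 counts in all 6 libraries, and the summed level was 80.7 to 92.1 CPM in sh-ctrl and 46.8 to 51.6 CPM in sh-KIF11, most of it CD68. CD68 was lower, VWF was higher (log2 fold change 1.01, edgeR adjusted p = 0.000342) and PECAM1 did not pass. The part of these markers in the changes below was not tested. Values depend on how the libraries are scaled, because scaling by library totals alone in place of TMM moved the median log2 fold change over all genes tested from 0.00 to 0.23. TMM values are therefore changes relative to that median. For the 10 subunits the value with library totals stands beside it. Several other genes are named with the TMM value alone, which also depends on the scaling. With library totals, for example, BIRC5 moved from -1 to -0.77 and SMC6 from 0.65 to 0.89.

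The comparison of sh-KIF11 with sh-ctrl asked how the condensin and cohesin genes respond when the kinesin is depleted. Of the 10 subunits, 6 were lower and 2 were higher in sh-KIF11 by edgeR's quasi-likelihood test at an adjusted p of 0.05. Across all 12369 tested genes 69.1% passed this threshold (34.7% lower and 34.4% higher), so that 8 of 10 is near the share of all genes. With library totals alone the same threshold gave 4 lower and 4 higher subunits, against 19.2% lower and 53.5% higher over all genes. The median log2 fold change of the 10 subunits was -0.17 with TMM and 0.06 with library totals, beside medians of 0.00 and 0.23 over all tested genes. All 10 TMM changes were smaller than 1.5-fold, a size that 25.7% of all tested genes passed together with the adjusted p. For 8 subunits the CPM ranges of sh-ctrl and sh-KIF11 were separate, as for 71.2% of all tested genes. Without the third sh-ctrl library 6 subunits were lower and 2 higher, but NCAPG was no longer among the lower ones and SMC4 was. In bulk RNA, fewer cells in the phases that make these mRNAs and less mRNA per cell cannot be told apart.

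**Figure D1:**
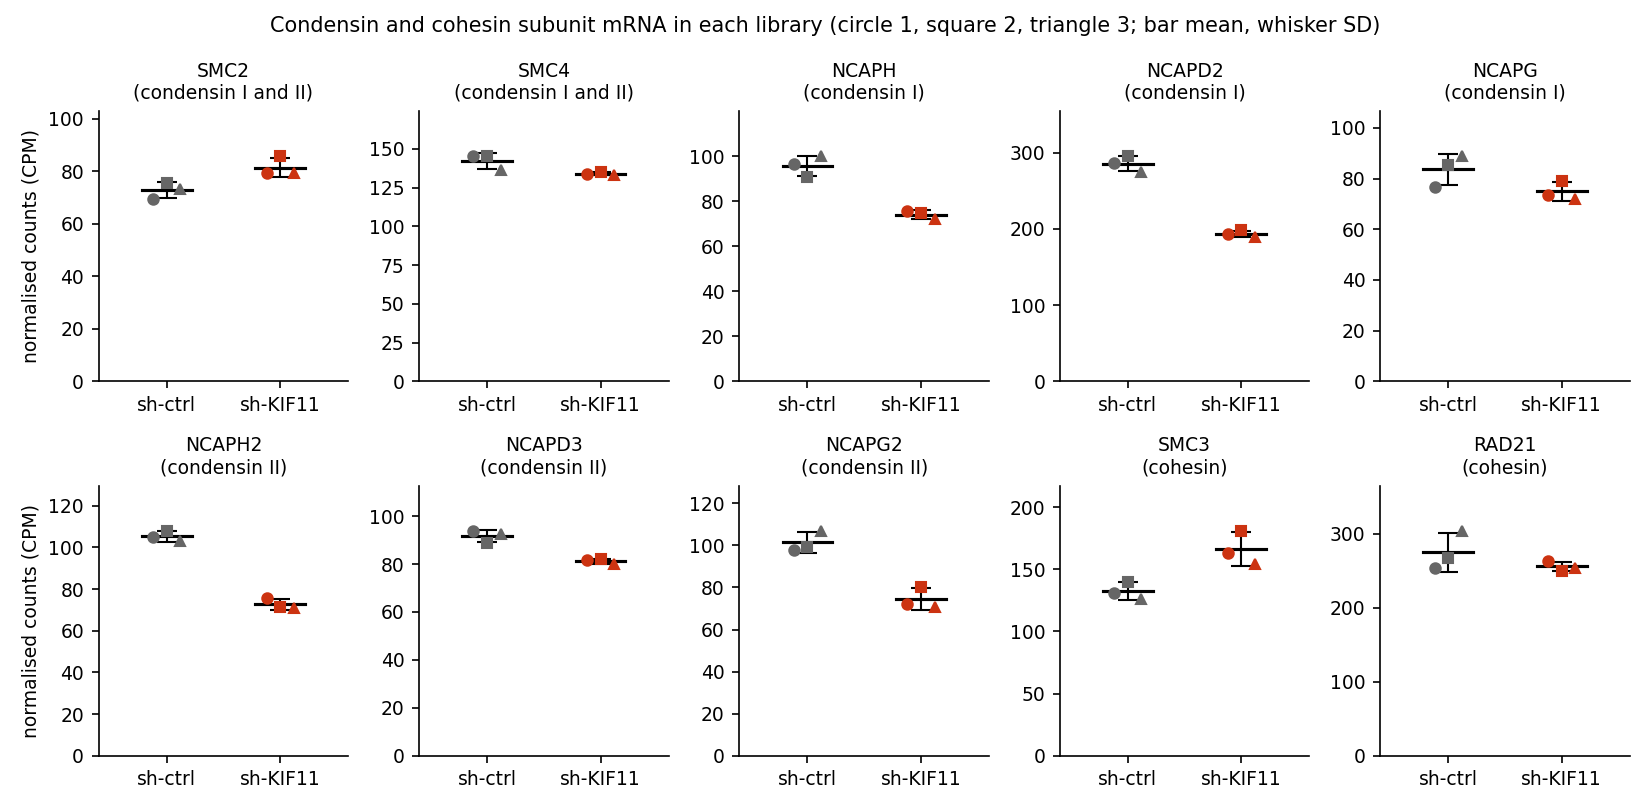
Normalised counts (CPM, vertical axes from 0) of the 10 subunits in each sh-ctrl library (grey) and sh-KIF11 library (red), on separate scales, with the mean as a bar and the SD as a whisker (n = 3 each). NCAPD2, NCAPH2, NCAPG2, NCAPH, NCAPD3 and SMC4 lie lower in all 3 sh-KIF11 libraries, SMC4 by a narrow gap. SMC2 and SMC3 lie higher, and the groups overlap for NCAPG and RAD21.

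NCAPD2, a HEAT-repeat subunit of condensin I (chromosome 12, 6493356 to 6531955, plus strand, GRCh38), had the largest fall of the 10. It had 287, 295 and 275 CPM in the sh-ctrl libraries and 193, 198 and 190 CPM in the sh-KIF11 libraries. Every sh-KIF11 library lay far below every sh-ctrl library. On the log2 scale it changed by -0.56 (SE 0.0488, edgeR adjusted p = 2.29e-13), and 11.8% of all tested genes had a lower value. With library totals the change of NCAPD2 was -0.33. Its coding neighbour MRPL51 overlaps it on the other strand.

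NCAPH2, the kleisin of condensin II (chromosome 22, 50508216 to 50523472, plus strand), fell by nearly as much. Its levels were 105, 108 and 103 CPM in sh-ctrl and 75.7, 71.5 and 70.9 CPM in sh-KIF11, with a clear gap between the groups. NCAPH2 changed by -0.53 on the log2 scale (SE 0.0541, edgeR adjusted p = 1.48e-11) and -0.30 with library totals. No other gene overlaps it in GENCODE release 29.

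NCAPG2, a HEAT-repeat subunit of condensin II (chromosome 7, 158631311 to 158704829, minus strand), had 98.0, 99.3 and 107 CPM in sh-ctrl and 72, 80.4 and 70.7 CPM in sh-KIF11. The second sh-KIF11 library was the highest of its group and still lay below all sh-ctrl libraries. Its log2 fold change was -0.44 (SE 0.0573, edgeR adjusted p = 6.36e-09) and -0.21 with library totals.

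NCAPH, the kleisin of condensin I (chromosome 2, 96335787 to 96373845, plus strand), had 96.3, 90.6 and 99.8 CPM in sh-ctrl and 75.4, 74.8 and 71.9 CPM in sh-KIF11. The groups did not overlap, and the sh-KIF11 libraries were the more alike. NCAPH had a log2 fold change of -0.37 (SE 0.0554, edgeR adjusted p = 1.92e-07) and -0.14 with library totals (adjusted p = 0.025 in the same test). NCAPD2, NCAPH2, NCAPG2 and NCAPH were thus lower under both scalings, and each passed the adjusted p of 0.05 with a lower value in all 15 alternatives.

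The remaining HEAT-repeat subunits changed less. NCAPD3 of condensin II (chromosome 11, 134150119 to 134225454, minus strand) ranged from 88.7 to 93.9 CPM in sh-ctrl and from 80 to 82.1 CPM in sh-KIF11. Its change of -0.18 on the log2 scale (SE 0.0538, edgeR adjusted p = 0.00398) turned to 0.05 with library totals. NCAPG of condensin I (chromosome 4, 17810902 to 17844862, plus strand) ranged from 76.8 to 88.7 CPM in sh-ctrl and from 72.1 to 79.0 CPM in sh-KIF11, so that its groups overlapped. Its log2 fold change was -0.16 (SE 0.0589, edgeR adjusted p = 0.0166) and turned to 0.07 with library totals. Its call was lost without the second or the third sh-ctrl library, at -0.14 and -0.12 (adjusted p = 0.0835 and 0.0605, same edgeR test), and without the first or the third sh-KIF11 library, at -0.15 and -0.13 (adjusted p = 0.0539 and 0.0888). The direction of NCAPD3 and NCAPG therefore rests on the scaling. NCAPD3 overlaps the coding genes JAM3 and VPS26B, and NCAPG overlaps LCORL, all on the other strand.

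Of the ATPases of condensin, SMC2 was higher and SMC4 did not pass the test. SMC2 (chromosome 9, 104094260 to 104141417, plus strand) had 69.6, 75.7 and 73.4 CPM in sh-ctrl and 79.3, 85.7 and 79.3 CPM in sh-KIF11. All sh-KIF11 libraries were above all sh-ctrl libraries, by a narrow gap. The log2 fold change of SMC2 was 0.16 (SE 0.0570, edgeR adjusted p = 0.0126) and 0.39 with library totals. Without the first sh-ctrl library the call was lost at 0.13 (adjusted p = 0.0619), and without the second sh-KIF11 library at 0.12 (adjusted p = 0.115), in the same edgeR test.

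SMC4 (chromosome 3, 160399274 to 160434962, plus strand) had 145, 145 and 136 CPM in sh-ctrl and 134, 135 and 133 CPM in sh-KIF11. The groups were adjacent and the call was not made. SMC4 changed by -0.08 on the log2 scale (SE 0.0503, 95% interval from -0.18 to 0.01, edgeR adjusted p = 0.132), and with library totals it was 0.15 (adjusted p = 0.0095 in the same test). Without the third sh-ctrl library SMC4 passed, at -0.12 (edgeR adjusted p = 0.0174). SMC4 overlaps the coding genes IFT80, TRIM59 and AC079594.2 on the other strand.

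The cohesin subunits also parted. SMC3, the cohesin ATPase that is acetylated when cohesion is established (chromosome 10, 110567691 to 110604636, plus strand), had 131, 140 and 126 CPM in sh-ctrl and 163, 181 and 154 CPM in sh-KIF11. The lowest sh-KIF11 library of SMC3 was above the highest sh-ctrl library. Its log2 fold change was 0.33 (SE 0.0552, edgeR adjusted p = 1.3e-06) and 0.56 with library totals, and it was higher and past the threshold in all 15 alternatives.

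RAD21, the kleisin that separase cleaves (chromosome 8, 116845935 to 116874866, minus strand), had 253, 267 and 304 CPM in sh-ctrl and 263, 250 and 254 CPM in sh-KIF11. The groups overlapped, and the third sh-ctrl library was well above the rest. The log2 fold change of RAD21 was -0.10 (SE 0.0537, 95% interval from -0.21 to 0.00, edgeR adjusted p = 0.0847). Without the third sh-ctrl library it was -0.03, without the first it was -0.16 (adjusted p = 0.0129 in the same test), and with library totals it was 0.13 (adjusted p = 0.0302). No direction can be given for RAD21 from these libraries. UTP23 overlaps it on the other strand.

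For each of the 8 subunits without overlap, the exact two-sided permutation test over the 6 libraries gave p = 0.1, the smallest that 3 libraries against 3 allow. The same exact permutation test gave p = 0.2 for NCAPG and p = 0.3 for RAD21.

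**Figure D2:**
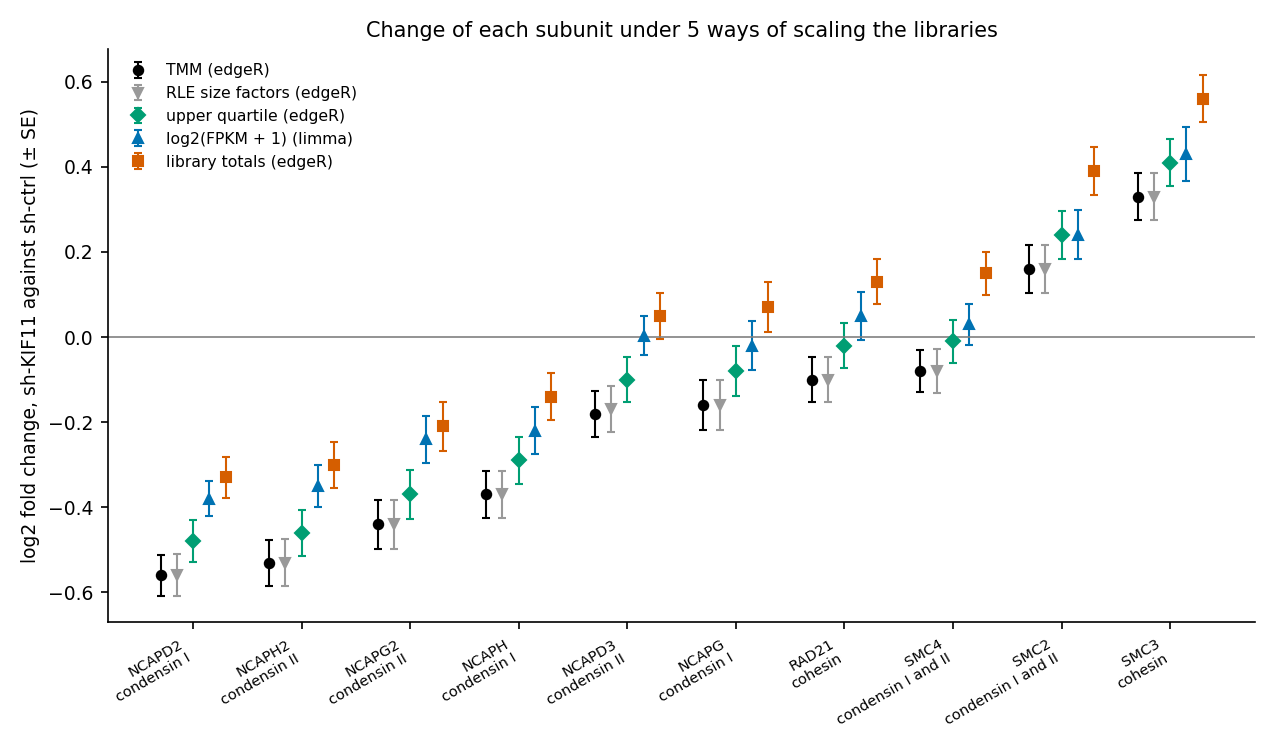
Log2 fold change (vertical axis, sh-KIF11 against sh-ctrl, ± SE) of the 10 subunits, in order of their TMM value, under 5 ways of scaling. The whole series of values moves up together from TMM to library totals, NCAPD2, NCAPH2, NCAPG2 and NCAPH stay below 0 throughout, SMC2 and SMC3 stay above 0, and NCAPD3, NCAPG, RAD21 and SMC4 cross it.

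The order of the subunits by change is shown best against all tested genes. SMC3 was higher than 73.5% of them and SMC2 than 61.9%. NCAPH was exceeded by 78.7% of the tested genes, NCAPG2 by 83.1%, NCAPH2 by 87.2% and NCAPD2 by 88.2%. The other 4 subunits lay nearer the middle, with between 34.9% and 42.3% of the tested genes below them. The subunits thus spanned the body of the distribution and not its tails.

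**Figure D3:**
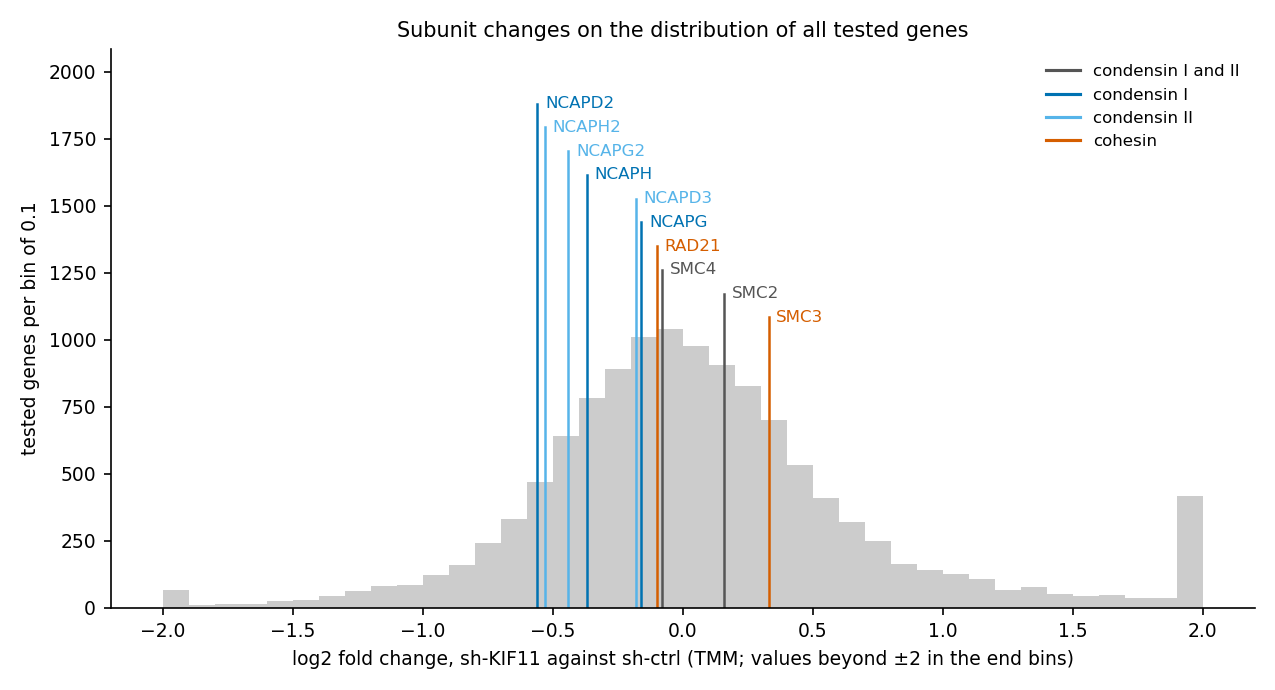
Histogram of the log2 fold changes of the 12369 tested genes (horizontal axis, bins of 0.1, values beyond 2 in either direction placed in the end bins) with a line for each subunit, coloured by complex. The lines run from NCAPD2 at -0.56 to SMC3 at 0.33, inside the bulk of the grey bars.

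Levels of different genes can be compared only per length, for which the deposited FPKM values were used. In sh-ctrl, RAD21 was the most abundant of the 10 at 55.3 ± 4.53 FPKM, followed by NCAPD2 at 38.7 ± 1.2, SMC3 at 21.3 ± 1.38 and SMC4 at 18.6 ± 0.949 FPKM (SD, n = 3 each). NCAPG, NCAPG2 and NCAPD3 came next, at 16.3, 13.8 and 11.5 FPKM. The kleisins NCAPH and NCAPH2, at 10.3 and 10.1 FPKM, overlapped each other, and SMC2 was the least abundant at 6.94 ± 0.331 FPKM. All other neighbours in this order did not overlap in their libraries.

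In sh-KIF11 the first 8 genes kept this order per length, and SMC2 and NCAPH2 exchanged the last places. NCAPD2, at 29.5 ± 0.577 FPKM, now overlapped SMC3, at 29.1 ± 2.19 FPKM. SMC2, at 8.37 ± 0.384 FPKM, was above NCAPH2, at 7.73 ± 0.0935 FPKM, without overlap, and overlapped NCAPH. NCAPG2 overlapped NCAPD3. RAD21 was still the most abundant, at 57.1 ± 1.44 FPKM.

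Ratios between subunits in the same library do not depend on the scaling between libraries, and they are given as values with no test. The ratio of NCAPD2 to NCAPD3, which occupy the same place in condensin I and II, was 3.34, 3.54 and 3.25 in sh-ctrl, against 2.56, 2.57 and 2.57 in sh-KIF11. The sh-KIF11 ratios were nearly identical and below those of sh-ctrl. They lay closer together than counting error, which was up to 1.63% for NCAPD2 and 2.53% for NCAPD3. For NCAPG to NCAPG2 the ratio went the other way, from 1.11, 1.25 and 1.18 to 1.39, 1.35 and 1.41. For the kleisins, NCAPH to NCAPH2, it was 1.06, 0.969 and 1.01 for sh-ctrl, and the sh-KIF11 libraries had 1.15, 1.13 and 1.09. The corresponding subunits therefore did not move together as condensin I against condensin II.

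The mean FPKM of NCAPH, NCAPD2 and NCAPG stood to that of NCAPH2, NCAPD3 and NCAPG2 as 1.84, 1.91 and 1.79 in sh-ctrl, against 1.77, 1.75 and 1.77 in sh-KIF11, a difference of -0.07 on the log2 scale. Without the second sh-ctrl library this difference was -0.04, and it ranged to -0.09 without the third. NCAPD2, the highest of these subunits per length, weighs most in such a mean. Of the pairs above, only NCAPD2 to NCAPD3 went down. SMC2 to SMC4 was 0.349, 0.380 and 0.391 in sh-ctrl, against 0.430, 0.455 and 0.432 in sh-KIF11. RAD21 to SMC3 was 2.39, 2.40 and 3.04 in sh-ctrl, against 2.06, 1.77 and 2.08 in sh-KIF11, with the third sh-ctrl library highest. The difference between groups in this ratio was -0.40 on the log2 scale, and -0.29 without that library. In all 6 of these ratios the groups did not overlap. The share of other gene pairs whose ratio separates the groups was not computed. Single genes separated them in CPM for 71.2% of all tested genes, so separation is common here.

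Another ratio, chosen after its values were seen, sets SMC2 against the mean of the 6 condensin subunits that are not ATPases. It was 0.401, 0.433 and 0.407 in sh-ctrl, against 0.582, 0.604 and 0.585 in sh-KIF11. The difference was 0.51 on the log2 scale. NCAPD2 to SMC2 and NCAPH2 to SMC2, also chosen after their values were seen, each differed by -0.66. NCAPD2 has the highest level among the 6 and the largest fall of the 10, and SMC2 was one of the subunits that rose, so the size of these differences follows in part from the choice.

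**Figure D4:**
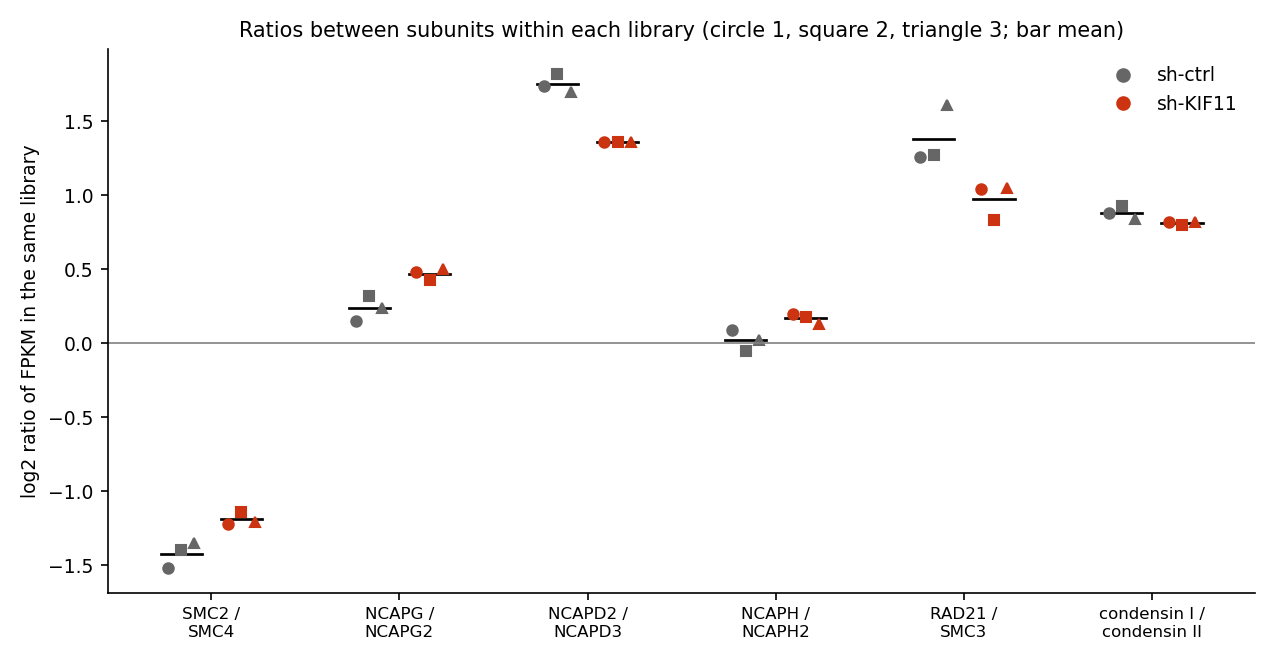
Log2 ratio of FPKM between subunits in the same library (vertical axis) for sh-ctrl (grey) and sh-KIF11 (red), with the mean of each group as a bar. The groups separate for each ratio, downward for NCAPD2 to NCAPD3 and RAD21 to SMC3, upward for SMC2 to SMC4, NCAPG to NCAPG2 and NCAPH to NCAPH2, and by -0.07 for condensin I to condensin II.

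Of the other core cohesin subunits, SMC1A, the ATPase partner of SMC3, had a log2 fold change of -0.15 (SE 0.0482, edgeR adjusted p = 0.00668) that turned to 0.08 with library totals. STAG2 and STAG1, the HEAT-repeat subunits that bind RAD21, were higher, at 0.36 (SE 0.0547, edgeR adjusted p = 2.63e-07) and 0.20 (SE 0.0681, edgeR adjusted p = 0.00958), and 0.59 and 0.43 with library totals. The call of STAG1 was lost without the second sh-ctrl library, at 0.15 (adjusted p = 0.0915), and without the second sh-KIF11 library, at 0.16 (adjusted p = 0.072, same test). The other tested gene of this list, the meiotic kleisin REC8, had only 7 to 25 counts and a log2 fold change of 0.07 (edgeR adjusted p = 0.876). Of the 4 tested, 2 were thus higher and 1 lower, against 34.4% and 34.7% of all tested genes. With library totals 2 were higher and 0 lower, against 53.5% and 19.2%. The meiotic subunit SMC1B had 0 counts in all libraries, which allows up to 3 counts in each.

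Like the 10 subunits, the gene lists were chosen with earlier results of these data known. Their counts beside the shares of all genes are therefore no test of an excess. The next list holds genes that load, release or acetylate cohesin. Of 13 tested, 6 were higher, 1 was lower and 6 did not pass, with a median log2 fold change of 0.13, so that fewer of them passed than the 69.1% of all tested genes. With library totals 12 were higher and 0 lower, against 53.5% and 19.2% over all genes. The largest change was that of the loader NIPBL, from 69.1 ± 1.40 to 98.0 ± 1.47 CPM (SD, n = 3 each), or 0.50 on the log2 scale (edgeR adjusted p = 7.61e-11). PDS5A, a HEAT-repeat regulator of cohesin, and DDX11, a helicase of sister chromatid cohesion, each had 0.32. CHTF8, part of the alternative clamp loader, was the 1 lower gene at -0.27 (-0.04 with library totals).

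Genes that protect or cleave cohesin at mitosis formed another list, together with mitotic kinases and the chromosomal passenger complex. These added genes (PLK1, BUB1, HASPIN, AURKB, INCENP, BIRC5 and CDCA8) were all lower with TMM. The counts of the list therefore do not describe protection and cleavage alone. Of 12 tested, 10 were lower, 1 was higher and 1 did not pass, with a median log2 fold change of -0.64, where 34.7% of all tested genes were lower. With library totals 8 were lower and 1 higher, against 19.2% and 53.5% over all genes. BIRC5 and AURKB of the chromosomal passenger complex fell by 1 and 0.92 on the log2 scale, from 198 ± 10.4 to 99.2 ± 3.55 CPM and from 66.7 ± 2.09 to 35.2 ± 0.820 CPM (SD, n = 3 each). PTTG1, the securin that inhibits separase, had a log2 fold change of -0.79 and the kinase PLK1 -0.78. ESPL1, the separase itself, had -0.66, and CDCA5, the sororin that shields cohesin from release, had -0.58. The higher gene was the shugoshin SGO2, at 0.38, and SGO1, at -0.13, did not pass. ESPL1, CDCA5, SGO2 and SGO1 were chosen after their values were seen.

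Among 12 tested partners of condensin in chromosome folding, 9 were lower, 2 were higher and 1 did not pass, with a median log2 fold change of -0.32, where 34.7% of all tested genes were lower and 34.4% higher. With library totals 6 were lower and 3 higher, against 19.2% and 53.5% over all genes. The chromokinesins KIF22 and KIF4A had -0.83 and -0.57, the cyclin CCNB1 had -0.70 and the histone variant gene H2AFZ had -0.56. The higher genes, named after their values were seen, were the topoisomerase TOP2B and the condensin II inhibitor MCPH1, both at 0.48. TOP2A, the topoisomerase of mitotic chromosomes and also named after its value was seen, had -0.22 (0.01 with library totals).

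The last list holds the SMC5/6 complex, another SMC machine of the nucleus, its loaders, and SMCHD1, a non-canonical SMC protein that is not a subunit of it. Of its 9 tested genes 4 were higher, 2 were lower and 3 did not pass, near the 69.1% of all tested genes that passed. The median was 0.20 with TMM, and with library totals 7 were higher and 0 lower, against 53.5% and 19.2% over all genes. SMC6 rose from 67.5 ± 2.44 to 106 ± 3.53 CPM (SD, n = 3 each), or 0.65 on the log2 scale (SE 0.0550, edgeR adjusted p = 7.36e-14). Its partner ATPase SMC5 had 0.22, the MAGE subunit NSMCE3 0.25 and SMCHD1, outside the complex, 0.23. The call of NSMCE3 was lost without the second sh-ctrl library, at 0.19, and without the third sh-KIF11 library, at 0.23. A call in 1 of these lists and not in another is no test that the lists differ.

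**Figure D5:**
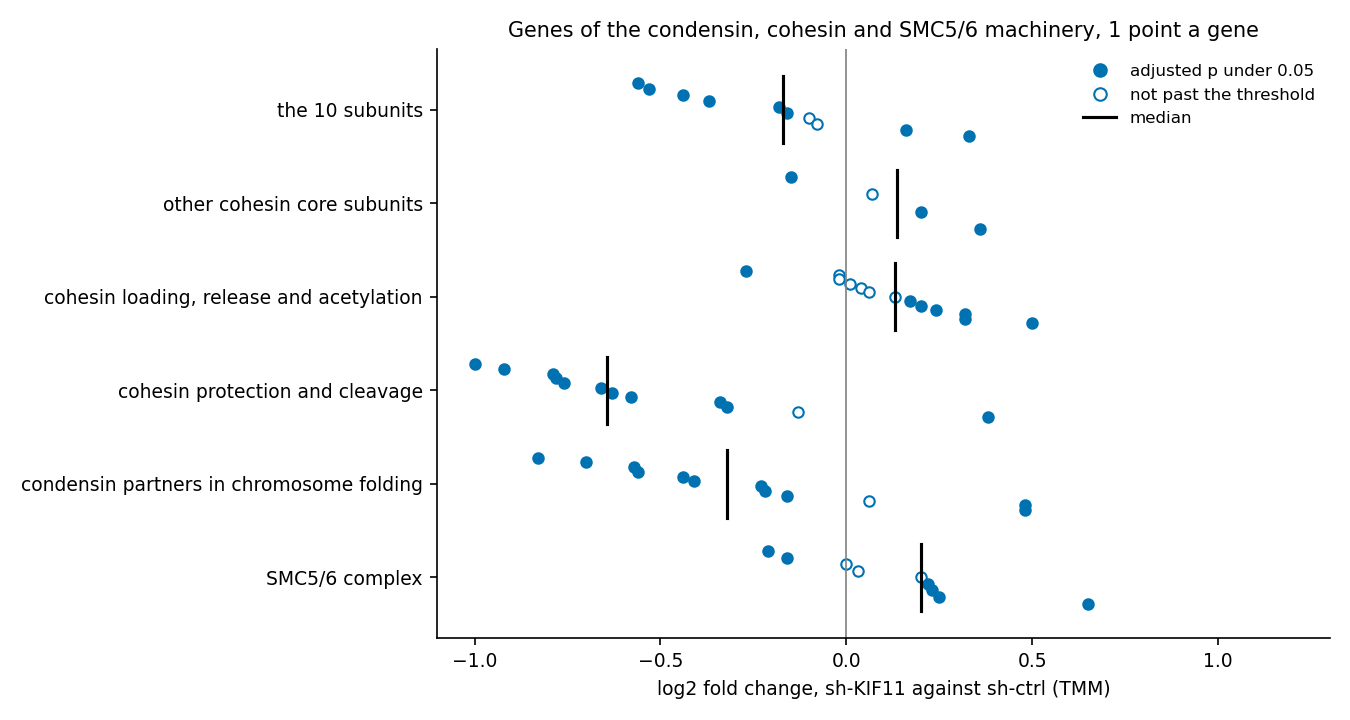
Log2 fold change (horizontal axis, TMM) of each tested gene in 6 lists, filled where the edgeR adjusted p is under 0.05, with the median of each list as a bar. The medians lie at -0.64 for cohesin protection and cleavage, -0.32 for condensin partners, -0.17 for the 10 subunits, 0.14 for other cohesin core subunits, 0.13 for cohesin loading, release and acetylation and 0.20 for the list of SMC5/6 genes and SMCHD1. The list of cohesin protection and cleavage also holds mitotic kinases and the chromosomal passenger complex.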

How the data were processed

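Poly(A) RNA of HepG2 cells was sequenced in 3 sh-ctrl and 3 sh-KIF11 libraries. The authors deposited raw counts per gene and FPKM values, which account for gene length and depth. Low-quality reads had been removed with Trimmomatic, and the submitters' processing notes also list HISAT2 2.1.0, HTSeq 0.9.1 and Cufflinks 2.2.1 and GRCh38, without their settings. The strand setting of the counting is not given in the sources used here, so reads of overlapping genes on opposite strands cannot be told apart, and reads of the pseudogene copies of SMC4, NCAPD2 and NCAPG may be uncertain. The columns of the knockdown are named only shRNA and were read as sh-KIF11, the only other shRNA in the labels.

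The count test was edgeR 4.0.16 in R 4.3.3 (filterByExpr, 12369 genes kept and 7661 left out, TMM, two-sided quasi-likelihood test with the group as only term, p-values adjusted by Benjamini-Hochberg across the 12369 genes). SE is the log2 fold change divided by the root of F, and 95% intervals use the normal approximation. CPM were scaled with TMM. Alternatives used limma 3.58.1 on log2(FPKM + 1) and log2(FPKM + 0.1), DESeq2 1.42.0, other scalings and filters, the replicate block and each library left out. The procedure was tested on simulated data. Besides KIF11, the 10 subunits, SMC1A, STAG1 and STAG2, up to 4 genes per list were named, taking the largest changes that passed 0.05, averaged 1 CPM or more and did not overlap between groups. Other names were picked with their values in view. The members and lists were chosen with earlier results of these data known. Positions are from GENCODE release 29 and promoters from RefSeq.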

Additional observations from a re-analysis of the deposited data

How the results depend on the processing

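The edgeR calls of NCAPD2, NCAPH2, NCAPG2, NCAPH and SMC3 held, with the same direction, in all 15 alternatives, whose values ranged from -0.59 to -0.33, -0.57 to -0.30, -0.51 to -0.21, -0.40 to -0.14 and 0.27 to 0.56. With library totals alone, log2 fold changes turned to 0.15 for SMC4, 0.07 for NCAPG, 0.05 for NCAPD3, 0.13 for RAD21 and 0.08 for SMC1A. Limma on log2(FPKM + 1) turned SMC4 to 0.03, NCAPD3 to 0.003, RAD21 to 0.05 and SMC1A to 0.005, and limma on log2(FPKM + 0.1) to 0.03, 0.0032, 0.05 and 0.01. NCAPG lost its call at -0.02 on both FPKM scales and at -0.08 with the upper quartile, where NCAPD3 had -0.10. RAD21 passed at -0.11 without the low-count filter. With 1 library left out, SMC2 ranged from 0.12 to 0.19, SMC4 from -0.12 to -0.06, NCAPG from -0.21 to -0.12 and RAD21 from -0.16 to -0.03, with calls lost or gained, and the cause was not tested. The count of higher subunits was 4 with library totals and 1 to 2 with a library left out. Requiring a 1.5-fold change left 0 higher and 0 lower subunits.

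Over all genes, 3179 passed with a 1.5-fold change (1856 higher and 1323 lower). Library totals gave 6619 higher and 2378 lower genes, where only the scaling changed. The FPKM scales gave 2596 and 2597 lower genes, with the scaling, the pseudocount and the test changed together, and the cause was not tested. For the lists, library totals gave 0 lower other cohesin subunits, 12 higher and 0 lower loading genes, and 7 higher and 0 lower SMC5/6 genes. Both FPKM scales gave 0 lower genes in these 3 lists and 10 higher loading genes. The upper quartile gave 0 lower other cohesin subunits. Lower SMC5/6 genes were 1 with RLE, the upper quartile, at least 10 counts in every library or DESeq2, and 1 to 2 with a library left out, where higher other cohesin subunits were also 1 to 2. With a 1.5-fold change, 0 genes of the other cohesin and loading lists passed in either direction, 0 higher protection and partner genes, 2 lower partner genes, and 1 higher and 0 lower SMC5/6 genes. Ranked by CPM and not FPKM in sh-ctrl, NCAPD2 was 1, RAD21 2, SMC4 3, SMC3 4, NCAPH2 5, NCAPH 7, NCAPD3 8 and NCAPG 9. The differences in the ratios within a library moved by less than the pooled SD between replicates, although that of condensin I to condensin II ranged from -0.09 to -0.04 with a library left out.

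Libraries with the same replicate number did not deviate together (correlations of -0.032 to 0.0409, against -0.0835 to 0.0819 for other pairs). The labels do not say what the number stands for. These few pairs cannot settle whether libraries with the same number were prepared together. The replicate block gave 8607 changed genes in place of 8548 and the same counts of 2 higher and 6 lower subunits. Each subunit had at least 1240 counts in every library, so that counting error was at most 2.84% of a value. For the subunits with small changes this error is not negligible, and its part in their spread was not tested. The number of libraries, 3 per group, is a further limit.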
